A study of Mus musculus with 24 samples.

Results

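The 54 genes described here serve DNA replication and cell division. They were taken by name from the count files, 22 as S-phase genes and 32 as mitotic genes, out of 55291 gene symbols. All 54 were found and none averaged under 10 reads per library. The lowest mean was 206.5 reads for E2f8 and the highest 4066.5 for Rrm1. All 54 entered the test across 16258 genes, so no member was lost to a filter on low counts. By the GENCODE annotation 9 members overlap another gene on the same strand and 20, E2f8 and Tk1 among them, one on the opposite strand. How the counting treated strand was not given in the sources used here, so reads of such pairs may be mixed.

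The cells were cultured pulmonary fibroblasts of C57BL/6 wild-type (WT) mice and of TLR4-/- mice on the same background, 4 to 8 weeks old. Fibroblasts of each group came from a pool of 3 to 4 lungs, were used at passages 3 to 6 and spent a night in a medium with reduced serum. They then received for 24 h either PBS, 1 μg/ml recombinant mouse cold-inducible RNA-binding protein (rmCIRP), 2 ng/ml recombinant mouse transforming growth factor β1 (rmTGF-β1), or both. CIRP outside cells is a damage signal that binds the receptor TLR4, and TGF-β1 is the main growth factor that turns fibroblasts towards matrix production. Each of the 8 conditions had 3 libraries, 24 in all. The libraries of a condition may come from 1 pool of cells, so p-values measure the spread between these libraries only, which may be technical.

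Reads on genes ranged from 29853346 to 39664606 per library. Fibroblast markers were present in every library, with 8 genes summing to between 11850 and 16970 CPM (reads scaled to an equal library total) in WT libraries and between 11470 and 15920 CPM in those labelled TLR4-/-. A list of 13 macrophage genes summed to between 2353 and 2937 CPM in the WT libraries and between 9969 and 12650 CPM in those labelled TLR4-/-, where the ranges of the lists overlap, and its part in any member's level was not tested. Lymphocyte markers stayed under 2 CPM in sum. Tlr4 mRNA did not mark the knockout, at 718, 802 and 758 normalised counts in WT cells with PBS and 927, 892 and 891 in the cells labelled TLR4-/-. Whether the altered allele still gives reads was not known from the sources used here, so these counts could not check the label. The libraries are therefore called by their label. The third library labelled TLR4-/- with both proteins stood apart from the other 2, with a chi-square per degree of freedom of 50.6 and 34.6. The third library labelled TLR4-/- with rmTGF-β1 followed, at 13.1 and 17.2 against its partners. All other pairs within a condition ran from 2.67 to 7.66.

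Cells commit to division when cyclin-dependent kinases release E2F factors from the retinoblastoma family of proteins, and E2F then switches on the genes for origin licensing, nucleotide supply and DNA synthesis. Mitotic genes follow later, driven by B-Myb and FoxM1 bound to the MuvB core complex. The same core, joined to p130 and E2F4 as the DREAM complex, holds both waves silent in resting cells. MuvB reaches mitotic promoters through the cell cycle homology region (CHR), often beside CCAAT boxes bound by NF-Y. Lung fibroblasts divide readily in culture, and these genes are the usual RNA measure of how many of them do so. In bulk RNA, fewer dividing cells and less of these RNAs in each cell cannot be told apart.

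The promoters of the members carried the letters of both systems. RefSeq promoter windows (GRCm38.p6, 250 bases before and 50 after a start site) were matched by symbol for 46 of the 54, 19 S-phase and 27 mitotic. Ccne2, Mcm4, Gins2, Ccna2, Aurkb, Foxm1, Kif20a and Tpx2 had no window. The search, on both strands, used the CHR words TTTGAA and TTTAAA, the CCAAT word, and the E2F words TTTCCCGC, TTTGGCGC, TTTCGCGC and TTTGCCGC. TTTAAA reads the same on both strands and was counted once, and E2F words may overlap one another. A match is a description of letters and not a bound site.

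A CHR word stood in 23 of 27 mitotic windows (85.2%) and 7 of 19 S-phase windows (36.8%), beside 19.7% of 11657 tested genes with a window and 27.8% of all 27025 windows. In 21 of the 23 mitotic genes, such a word began within 50 bases of the start site on either side. CCAAT stood in 81.5% of mitotic, 68.4% of S-phase and 38.5% of tested windows (37.9% of all). Both words together were in 77.8% of mitotic and 26.3% of S-phase windows, against 7.95% of tested and 10.9% of all windows. E2F words had the other distribution, with 31.6% of S-phase windows (6 of 19), 3.7% of mitotic windows (Cdk1 alone), 3.9% of tested and 2.32% of all windows.

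**Figure D1:**
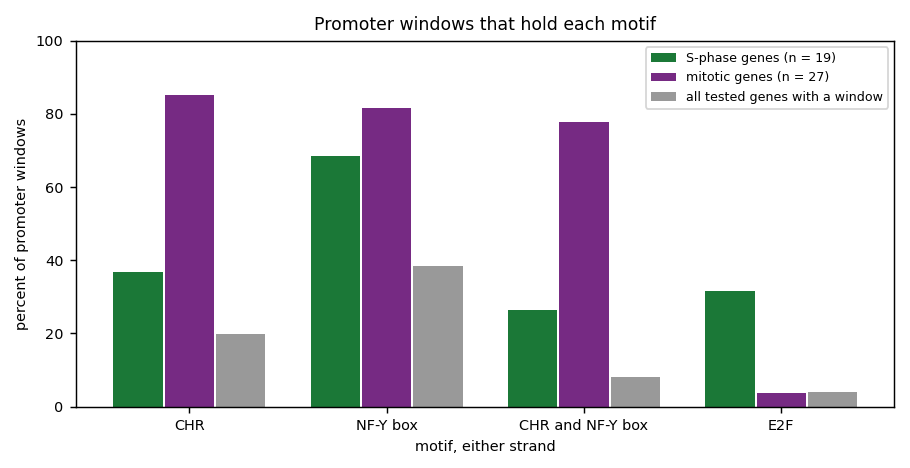
The bars give the percent of promoter windows that hold each motif on either strand, for S-phase members (green, n = 19), mitotic members (purple, n = 27) and all tested genes with a window (grey, n = 11657). NF-Y box is the CCAAT word. CHR words filled 85.2% of mitotic windows and E2F words 31.6% of S-phase windows.

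The 250 bases before the start site of 6 members are shown because these genes carry the results that follow: E2f8 had the deepest fall, Mcm5 and Mcm6 are subunits of 1 helicase whose rmTGF-β1 values had opposite signs, and Cdk1, Ccnb1 and Mki67 are mitotic genes with the paired words. Each runs 5′ to 3′ along the gene in GRCm38.p6, and capitals mark CHR words, CCAAT and E2F words, written as their reverse complement where they lie on the other strand.
E2f8, chr7:48881597-48881846, minus strand: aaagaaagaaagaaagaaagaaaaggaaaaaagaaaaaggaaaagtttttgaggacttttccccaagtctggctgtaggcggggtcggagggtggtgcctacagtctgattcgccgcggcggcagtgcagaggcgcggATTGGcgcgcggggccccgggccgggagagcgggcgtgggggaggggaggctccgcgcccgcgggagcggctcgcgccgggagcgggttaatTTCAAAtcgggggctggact
Mcm5, chr8:75109259-75109508, plus strand: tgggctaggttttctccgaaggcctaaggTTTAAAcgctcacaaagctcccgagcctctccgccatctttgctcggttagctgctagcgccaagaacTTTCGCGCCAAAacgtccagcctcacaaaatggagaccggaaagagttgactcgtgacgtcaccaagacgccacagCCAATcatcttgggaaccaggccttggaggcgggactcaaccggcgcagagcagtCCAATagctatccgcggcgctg
Mcm6, chr1:128359706-128359955, minus strand: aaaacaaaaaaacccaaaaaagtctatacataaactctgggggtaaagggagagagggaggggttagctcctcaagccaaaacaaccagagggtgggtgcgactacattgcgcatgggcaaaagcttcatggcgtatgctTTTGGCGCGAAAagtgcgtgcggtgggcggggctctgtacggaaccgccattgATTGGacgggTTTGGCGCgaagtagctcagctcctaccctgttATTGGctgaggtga
Cdk1, chr10:69352913-69353162, minus strand: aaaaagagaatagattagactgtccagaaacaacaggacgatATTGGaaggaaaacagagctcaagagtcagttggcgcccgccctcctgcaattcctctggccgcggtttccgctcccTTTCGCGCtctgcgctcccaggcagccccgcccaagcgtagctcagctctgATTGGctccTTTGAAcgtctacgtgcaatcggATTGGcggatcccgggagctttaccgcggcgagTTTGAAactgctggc
Ccnb1, chr13:100786487-100786736, minus strand: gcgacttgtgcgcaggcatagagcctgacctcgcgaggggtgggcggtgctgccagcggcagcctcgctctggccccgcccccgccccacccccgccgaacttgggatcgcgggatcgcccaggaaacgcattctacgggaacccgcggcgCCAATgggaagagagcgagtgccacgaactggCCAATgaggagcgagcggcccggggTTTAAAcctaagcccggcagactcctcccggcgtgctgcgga
Mki67, chr7:135716380-135716629, minus strand: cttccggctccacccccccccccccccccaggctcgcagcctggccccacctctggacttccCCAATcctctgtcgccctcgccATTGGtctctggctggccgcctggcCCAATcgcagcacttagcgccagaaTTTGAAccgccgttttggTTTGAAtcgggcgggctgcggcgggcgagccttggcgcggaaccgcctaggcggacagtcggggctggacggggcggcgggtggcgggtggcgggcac
The E2f8 stretch held 1 CHR word (TTCAAA, the reverse complement) and 1 CCAAT word but no E2F word of those searched. The Mcm5 and Mcm6 stretches each held a pair of E2F words that share bases, and Mcm6 had 1 more nearer the start. Cdk1 and Mki67 each held 2 CHR words, and Ccnb1 held 1 CHR word after 2 CCAAT words.

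The first comparison asks what rmCIRP alone did to cycling genes in WT fibroblasts. Of the 54 genes, 47 fell with rmCIRP and none rose at an adjusted p under 0.1, and all 54 had a negative log2 fold change, with a median of -0.35. Across all tested genes the same test called 24.1% lower and 19.8% higher, and the median was -0.02. Of the S-phase genes 17 of 22 fell, and of the mitotic genes 30 of 32. The falls were modest, from -0.12 (Pcna) to -0.70 (E2f8) on the log2 scale among those called.

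Normalised read counts below are reads divided by a library's size factor, given for replicates 1, 2 and 3 in that order. E2f8, an atypical E2F that represses E2F targets late in S phase, had 196, 149.8 and 176 counts in WT cells with PBS and 101, 119 and 103 with rmCIRP. The conditions did not overlap, at -0.70 ± 0.13 on the log2 scale (SE of the fold change, adjusted p = 0.000265). E2f1, the activator of the G1/S switch, changed by -0.34 ± 0.09 (adjusted p = 0.00317). Cyclin E1 (Ccne1) and cyclin E2 (Ccne2), the partners of CDK2 at S-phase entry, changed by -0.29 ± 0.11 and -0.42 ± 0.15 on the same scale. All 4 genes listed here under the G1/S switch therefore fell, counting the repressor E2f8.

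Origin licensing and the replicative helicase gave smaller changes, with 8 of 12 genes called and a median of -0.20. Mcm5, a subunit of the MCM helicase that unwinds DNA, had 1151, 859.6 and 1022 normalised counts with PBS and 774, 699 and 684 with rmCIRP. These did not overlap, at a log2 fold change of -0.50 ± 0.10 (adjusted p = 0.000299). Its partner Mcm2 changed by -0.25 ± 0.09 (adjusted p = 0.036). Pcna, the sliding clamp of the DNA polymerases, had 2394, 2181 and 2191 counts with PBS and 2079, 2019 and 2132 with rmCIRP. That is a small but separate shift, -0.12 ± 0.04 (adjusted p = 0.0217). Cdc6, which loads the helicase, was not called, at 455, 292 and 392 counts with PBS and 340, 380 and 316 with rmCIRP. Its conditions overlapped. The other 3 genes of this role without a call were Mcm10, Cdc45 and Gins2, at -0.26, -0.20 and -0.21.

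The supply of nucleotides split. Tk1, the salvage kinase for thymidine, had 612, 481 and 605 normalised counts with PBS and 366, 395 and 353 with rmCIRP, with no overlap and a log2 fold change of -0.61 ± 0.11 (adjusted p = 0.000141). The ribonucleotide reductase subunits Rrm1 and Rrm2, which make deoxynucleotides, changed by -0.41 ± 0.10 (adjusted p = 0.00168) and -0.35 ± 0.12 (adjusted p = 0.0262). Tyms, which makes thymidylate, was not called, at -0.07 ± 0.08 with 1001, 862 and 918 counts against 910.5, 917 and 825. Uhrf1, which keeps DNA methylation through replication, and Brca1, a repair factor, both fell, by 0.41 and 0.34 on the log2 scale.

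All 9 mitotic kinases, cyclins and their regulator fell, with a median of -0.36. Cyclin A2 (Ccna2), which serves S phase and G2, had 904, 642 and 840 normalised counts with PBS and 517, 534 and 547 with rmCIRP. The conditions were apart, at -0.58 ± 0.12 (adjusted p = 5e-04). Cdk1, the kinase that starts mitosis, had 1883.5, 1402 and 1683 counts with PBS and 1293.5, 1399 and 1346.5 with rmCIRP, so that the second PBS library lay just above the highest treated one (-0.30 ± 0.11, adjusted p = 0.0308). Its partner cyclin B1 (Ccnb1) changed by -0.36 ± 0.11 (adjusted p = 0.0115), the mitotic kinases Plk1 and Aurkb by -0.32 ± 0.12 and -0.41 ± 0.13 (adjusted p = 0.0452 and 0.0193), and Foxm1, the factor that drives mitotic genes, by -0.36 ± 0.11 (adjusted p = 0.0159). Foxm1 overlapped between conditions, since the second PBS library had 663 counts and the second rmCIRP library 676.

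The machinery of the spindle moved the same way. All 5 genes of the spindle checkpoint and anaphase-promoting complex fell, Bub1 the most, at -0.47 ± 0.13 (adjusted p = 0.00574). At the centromere and kinetochore 6 of 7 fell, among them Cenpf (-0.48 ± 0.10, adjusted p = 0.000449) and survivin (Birc5, -0.45 ± 0.13, adjusted p = 0.00869), while Cenpa, the centromeric histone, was not called at -0.20 ± 0.10. Of the 8 genes for spindle motors and cytokinesis 7 fell, with Kif23 the exception at -0.19 ± 0.11. Prc1, which bundles the central spindle, had 1378, 1071 and 1261.5 normalised counts with PBS and 917, 966 and 885 with rmCIRP, without overlap (-0.43 ± 0.09, adjusted p = 0.000701).

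Cdca3, a trigger of entry into mitosis, changed by -0.50 ± 0.12 (adjusted p = 0.00284), and Top2a, which untangles chromosomes, by -0.38 ± 0.09 (adjusted p = 0.00271). Mki67, the standard proliferation marker, had 2269, 1631 and 2125 normalised counts with PBS and 1488, 1641 and 1456 with rmCIRP. Its conditions overlapped through the second library of each (-0.40 ± 0.09, adjusted p = 0.00111).

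**Figure D2:**
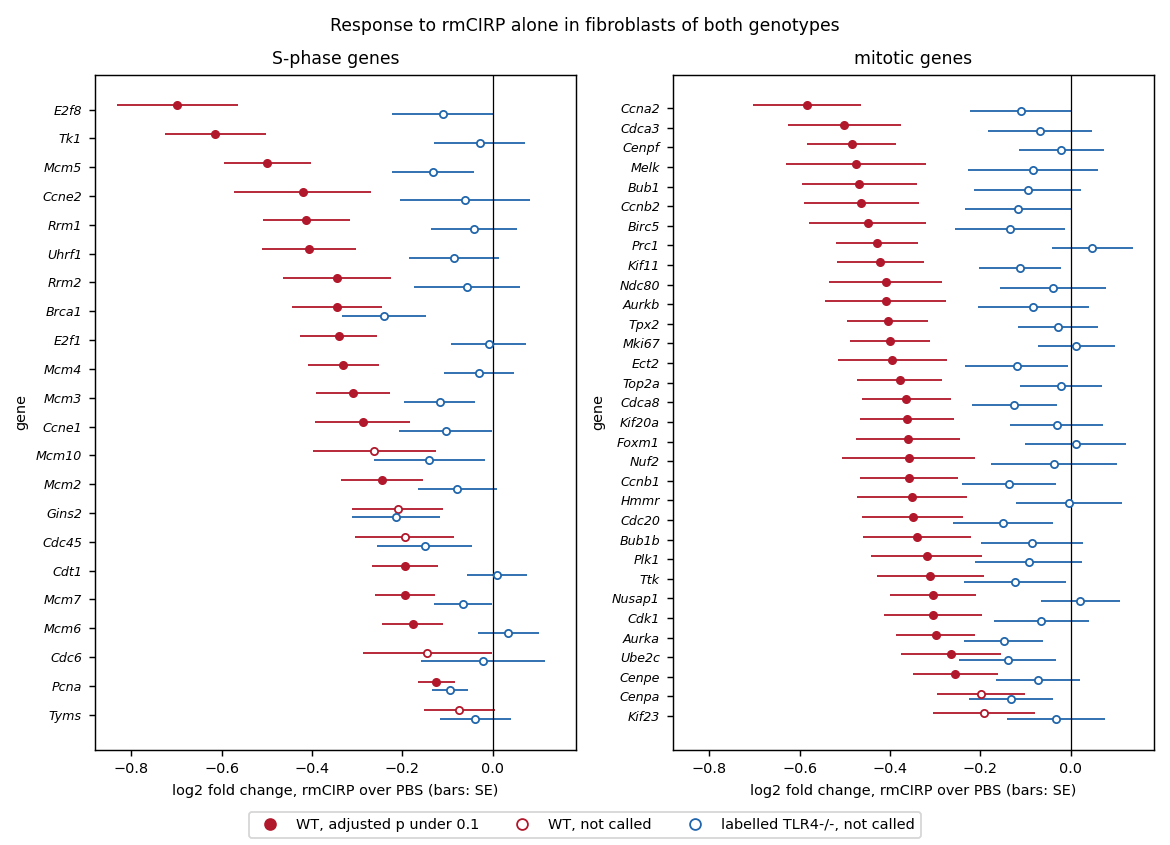
Each point is the log2 fold change of rmCIRP over PBS with its SE, for S-phase genes (left) and mitotic genes (right), in WT cells (red) and cells labelled TLR4-/- (blue); filled points had an adjusted p under 0.1. All 54 WT points lie below 0 and 47 are filled, whereas no blue point is filled.

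The size of the WT result rested in part on which PBS library was present. PBS library 2 had low levels of most members and PBS library 1 high levels: the median over members of the log2 level, centred on each gene's mean over the 24 libraries, was 0.21, -0.22 and 0.06 in the 3 PBS libraries and between -0.35 and -0.27 in the rmCIRP libraries. Without PBS library 1, 22 members were called, and Mcm2, Pcna, Ccne1, Rrm2, Mcm6, Cdk1, Plk1, Aurkb and Foxm1 were among those that lost their call. Without PBS library 2, 52 were called. The median fold change was -0.23 and -0.46 in these fits. The 22 called in each of the 6 fits that left out 1 library included E2f8, Tk1, Mcm5, E2f1, Rrm1, Ccna2, Ccnb1, Mki67, Top2a, Prc1 and Birc5. In 31 of 54 members every rmCIRP library lay below every PBS library, against 26.9% of all tested genes.

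**Figure D3:**
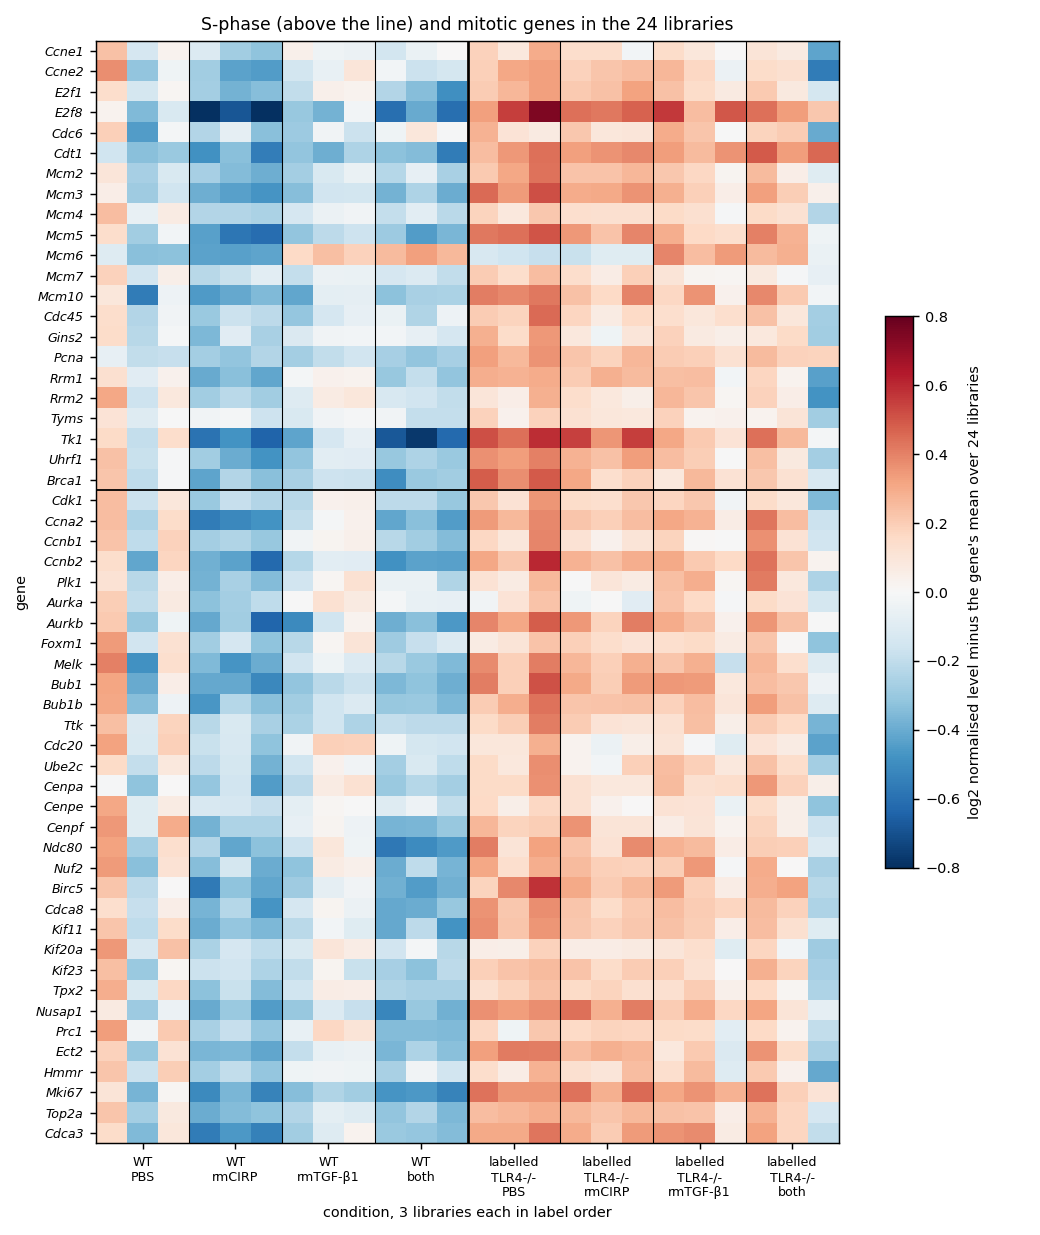
Rows are the 54 genes, S-phase above the line and mitotic below, and columns the 24 libraries by condition; colour is the log2 normalised level minus the gene's mean over all libraries. The WT columns with rmCIRP are mostly blue, WT PBS library 2 is bluer than its partners, and Mcm6 is highest in columns with rmTGF-β1.

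Around the members, other replication and mitotic genes mostly fell in WT cells with rmCIRP, whereas replication-dependent histones and G1 regulators did not move as 1 block. Of 26 other replication genes 17 fell and none rose, led by Gmnn, the licensing inhibitor geminin, at -0.84 ± 0.11 (adjusted p = 2.19e-06). Of 34 other mitotic genes 32 fell and 1 rose, from Anln, the cytokinesis scaffold anillin, at -0.73 ± 0.12 (adjusted p = 6.63e-05) to Pttg1, securin, at 0.27 ± 0.08 (adjusted p = 0.00869). Among replication-dependent histones 1 of 5 linker histones rose and none fell, and of 23 others tested 1 rose and 2 fell.

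The G1 regulators went both ways. Cyclin D1 (Ccnd1), the growth-factor-driven partner of CDK4 and CDK6, had 1360, 1506.5 and 1482 normalised counts with PBS and 867, 817 and 921 with rmCIRP, clearly apart at -0.74 ± 0.08 (adjusted p = 5.85e-08). Cyclin D2 (Ccnd2) rose slightly (0.11 ± 0.04, adjusted p = 0.0285), and cyclin D3 (Ccnd3) was at -0.00 with an SE of 0.07. Cdk6 and Myc rose, by 0.51 ± 0.04 and 0.54 ± 0.07, and the E2F activator E2f2 fell (-1.09 ± 0.19, adjusted p = 0.000111).

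Of the 7 CDK inhibitors, 1 rose and 3 fell. Cdkn1a (p21) rose by 0.15 ± 0.04 (adjusted p = 0.00216). Cdkn1b (p27), Cdkn2c (p18) and Cdkn2d (p19 of the INK4 family) fell, at -0.40 ± 0.06, -0.50 ± 0.09 and -0.38 ± 0.09 (adjusted p = 8.55e-06, 0.00013 and 0.0013). Cdkn2a, Cdkn2b and Cdkn1c were not called, at -0.04, 0.08 and -0.56. Of 9 p53 targets 3 rose and none fell, the largest being Gadd45a at 0.72 ± 0.10 (adjusted p = 5.46e-06), with Mdm2 at 0.28 ± 0.04. In the same comparison 5 of 8 fibroblast markers fell and 2 rose, with sums of 11850 to 13050 CPM against 14910 to 15940 with PBS. Of 13 macrophage markers 9 fell and 4 rose, with sums of 2378 to 2525 CPM against 2711 to 2937. Of 5 smooth muscle and pericyte markers 3 fell and none rose, with sums of 1627 to 1789 CPM against 2443 to 2650, and of 4 epithelial markers tested 3 fell, with sums over all 8 of 2.18 to 2.49 CPM against 3.35 to 4.45. The part of these lists in the members' change was not tested.

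A second pair of WT conditions, which shares no library with the first, put rmCIRP on top of rmTGF-β1. Here 17 of 54 members fell and none rose, with a median of -0.16, against 21.7% of all tested genes called lower and 20.5% higher. The mitotic genes held 13 of these calls, out of 32, and the S-phase genes 4, out of 22. The S-phase share was below that of all tested genes called lower. Of these 17, 16 were also among the 47 that fell with rmCIRP alone, which is 94.1% of the shorter list and 34.0% of the longer. The exception was Cenpa (-0.27 ± 0.10, adjusted p = 0.0332). Since 47 of all 54 members were on the longer list, most of any 17 members would be shared. In 24 members every library with both proteins lay below every rmTGF-β1 library, against 25.0% of all tested genes. By phase these were 18 of 32 mitotic genes (56.2%) and 6 of 22 S-phase genes (27.3%), the latter near the share of all tested genes.

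Tk1 had 411.5, 502 and 526 normalised counts with rmTGF-β1 against 345, 324 and 358 for the combination. The conditions did not overlap (-0.49 ± 0.11, adjusted p = 0.00166). Ndc80, which links kinetochores to microtubules, had 287.5, 345 and 314 counts with rmTGF-β1 against 217, 229 and 236 for the combination, again apart (-0.48 ± 0.13, adjusted p = 0.00526). Prc1 had 1053, 1231 and 1175 with rmTGF-β1 against 862, 865 and 861 for the combination, the tightest of the 3 (-0.42 ± 0.09, adjusted p = 0.000945).

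Ccna2, Cenpf and E2f1 fell as well, by 0.35, 0.32 and 0.31 on the log2 scale. By role, no origin licensing or helicase gene was called (0 of 12) and 5 of 7 centromere and kinetochore genes were. Ccnd1 again had a lower level, at -0.73 ± 0.08 (adjusted p = 1.12e-07). Without rmTGF-β1 library 2 or 3, or library 1 or 3 of both proteins, the count of members was 10, and fitted on these 6 libraries alone it was 34, of which 32 were lower and 2 higher. In this comparison 4 of 8 fibroblast markers fell and 1 rose (sums of 13590 to 13910 CPM against 16870 to 16970), and 6 of 13 macrophage markers fell and 4 rose (2353 to 2638 against 2466 to 2841). Of 5 smooth muscle and pericyte markers 3 fell (1749 to 1828 CPM against 2610 to 2766), and of 4 epithelial markers tested 2 fell (1.5 to 2.28 CPM over all 8 against 2.28 to 2.66). Their part in the members' change was not tested.

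Set side by side, the S-phase median minus the mitotic median was 0.07 for rmCIRP alone and 0.11 for rmCIRP on top of rmTGF-β1, with a pooled replicate SD of 0.05 for this difference within conditions. Both are described and not tested. The value for rmCIRP alone was 0.04 without PBS library 3 and 0.11 without PBS library 2. In all 3 WT libraries with both proteins the S-phase median exceeded the mitotic one, by 0.05 to 0.09, whereas the 3 WT PBS libraries ran from -0.12 to 0.00 and the 3 with rmTGF-β1 from -0.09 to -0.03. The 3 WT rmCIRP libraries, at 0.06, -0.09 and 0.00, overlapped those with PBS. A test of whether the rmCIRP effect depended on rmTGF-β1 called none of the 54 by edgeR or DESeq2, while 3 (Mcm4, Mcm5 and Mcm6) had an unadjusted p under 0.05, and over all tested genes edgeR called 0.0369% higher and 0.0123% lower.

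**Figure D4:**
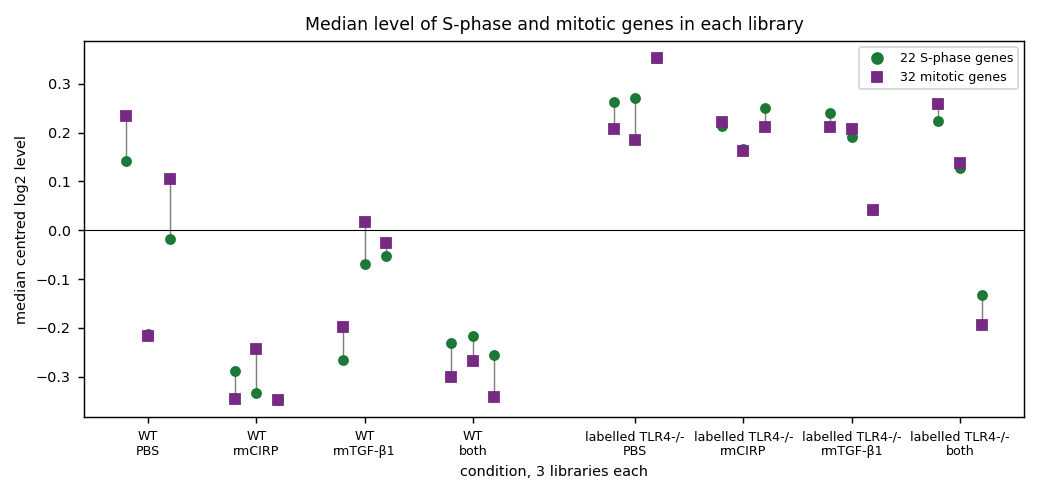
For each of the 24 libraries, the green circle is the median centred log2 level of the 22 S-phase genes and the purple square that of the 32 mitotic genes, joined by a line. The 6 WT libraries with rmCIRP lie at -0.35 to -0.22 for the S-phase genes, and those labelled TLR4-/- lie above 0 except the third with both proteins, at -0.13 and -0.19.

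In cells labelled TLR4-/-, rmCIRP alone called none of the 54 by edgeR and none by DESeq2. Their median log2 fold change was -0.08, with 48 of 54 below 0, and it was -0.04 without the third PBS library and -0.11 without the second. There were 3 members with an unadjusted p under 0.05: Brca1 (-0.24), Gins2 (-0.21) and Pcna (-0.09). Over all tested genes edgeR called 0% in either direction and 1136 had an unadjusted p under 0.05, while DESeq2 called 32 genes, edgeR on only the libraries compared 29 and edgeR with no filter on low counts 149. In 12 members every rmCIRP library lay below every PBS library, against 7.91% of tested genes.

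Prc1 had 1227, 1070.3 and 1273 normalised counts with PBS and 1215, 1228 and 1234 with rmCIRP, within the spread of the PBS libraries. Tk1 had 785, 748 and 829 with PBS and 801, 698 and 809 with rmCIRP, also overlapping. E2f8 had 242, 284 and 324.5 with PBS and 260.5, 256 and 268 with rmCIRP. Their log2 fold changes were 0.05, -0.03 and -0.11.

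The difference between the genotypes was itself tested, as the rmCIRP response of cells labelled TLR4-/- minus that of WT cells. It was above 0 for 16 members and below 0 for none, against 17.1% and 14.3% of all tested genes, and 53 of 54 members had a positive estimate. The 16 were E2f8, Tk1, Prc1, Ccna2, Cenpf, Cdca3, Mki67, Tpx2, Rrm1, Foxm1, Mcm5, Top2a, E2f1, Nusap1, Kif11 and Mcm4. They ranged from 0.59 ± 0.18 for E2f8 (adjusted p = 0.017) to 0.30 ± 0.11 for Mcm4 (adjusted p = 0.0503). Ccnd1 differed too, by 0.72 ± 0.10 (adjusted p = 1.39e-05).

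This difference uses the same WT libraries as the first comparison and moves with them. Without WT PBS library 1, 5 members were called and without WT PBS library 2, 32. The count was 7 without WT rmCIRP library 3, and 9 without library 1 of either PBS or rmCIRP labelled TLR4-/-. The 5 called in all 12 fits that left out a library were Cenpf, E2f8, Mki67, Prc1 and Tk1. The S-phase median of the difference was 0.20 and the mitotic median 0.32.

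**Figure D5:**
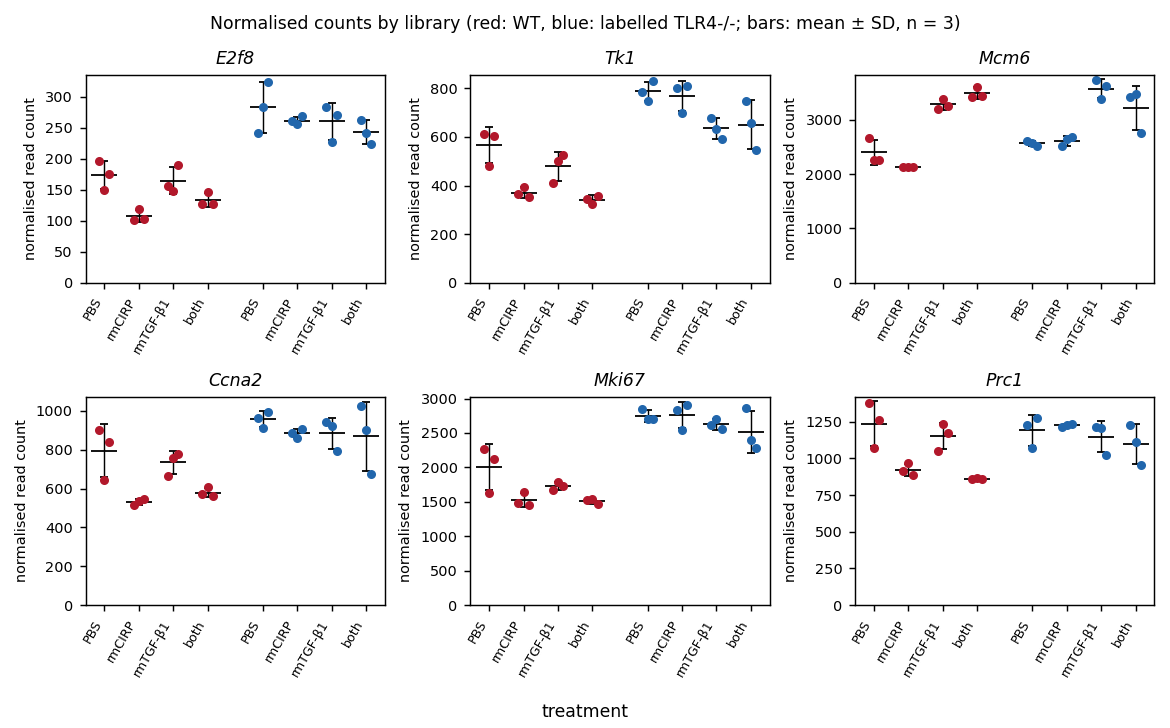
Points are normalised read counts of 6 genes in each library, red for WT and blue for labelled TLR4-/-, with the mean ± SD (n = 3). The means of all but Mcm6 are lowest in WT cells with rmCIRP or both proteins, and Mcm6 is highest in the conditions with rmTGF-β1.

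With PBS alone, the cells labelled TLR4-/- had higher levels of 29 members than WT cells, 15 S-phase and 14 mitotic, and lower levels of none. The median was 0.25, against 23.2% of all tested genes higher and 24.0% lower. In 25 members every library of the labelled TLR4-/- cells lay above every WT library, against 25.5% of tested genes. In these cells all 13 macrophage markers were also higher, with a median of 2.19 on the log2 scale, summing to 10310 to 11750 CPM against 2711 to 2937 CPM. Of the smooth muscle and pericyte markers 3 of 5 were lower and 1 higher, of the endothelial markers 4 of 6 lower and 1 higher, of the fibroblast markers 3 of 8 lower and 1 higher, and of the epithelial markers 3 of 4 tested higher. Their part in the members' levels was not tested. Each genotype comes from its own pool of lungs, so genotype and pool cannot be told apart.

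Cdt1, which licenses origins together with Cdc6, had 533, 471 and 483 normalised counts in WT cells and 704, 761 and 810.3 in the cells labelled TLR4-/-. The groups were well apart (0.61 ± 0.07, adjusted p = 2.12e-07). Pcna had 2394, 2181 and 2191 in WT cells and 3137, 3009.5 and 3207.5 in the others, also apart (0.46 ± 0.04, adjusted p = 3.35e-09). E2f8, with 196, 149.8 and 176 against 242, 284 and 324.5, was 0.70 ± 0.12 higher (adjusted p = 5.04e-05), and Mcm3, Mcm10 and Mcm5 were 0.56, 0.55 and 0.50 higher.

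Of the 12 licensing and helicase genes 9 were higher, with a median of 0.36, whereas of the 9 mitotic kinases, cyclins and their regulator 3 were, with a median of 0.16. The lowest values were mitotic: Kif20a at -0.07 and Prc1 at -0.06, neither called. Mki67 was 0.45 ± 0.09 higher (adjusted p = 0.000227). Among the regulators Ccnd1 was 1.73 ± 0.07 and E2f2 1.64 ± 0.14 higher, and the inhibitors Cdkn1b and Cdkn1c were lower, at -0.32 ± 0.06 and -1.52 ± 0.38. Cdkn1c rests on few reads, with 10.9, 2.1 and 4 normalised counts against 15.4, 19 and 15.6 in WT cells, and was -2.38 without the first library labelled TLR4-/- and -1.16 without the second. Without WT PBS library 2, 18 members were called and the median over members was 0.14, and without WT PBS library 1 it was 0.39.

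The effect of rmTGF-β1 alone was small and differed by gene. In WT cells it called 1 member higher (Mcm6) and 1 lower (the checkpoint kinase Ttk, -0.33 ± 0.12, adjusted p = 0.0846), against 5.77% and 6.65% of tested genes, with a median of -0.12. Ttk lost its call in 5 of 6 fits that left out a library, and without PBS library 2 the count was 13 members. The median turned to 0.01 without PBS library 1 and was -0.22 without PBS library 2 and -0.06 without the first rmTGF-β1 library. In cells labelled TLR4-/- it called Mcm6 higher and 6 members lower, against 12.1% and 11.7% of tested genes, with a median of -0.11. As a share of the members, the 6 lower were near the share of all tested genes called lower. These 6 were Ect2 (-0.33), Tk1 (-0.30), Brca1 (-0.30), Mcm5 (-0.26), Mcm3 (-0.26) and Pcna (-0.14), 5 of them S-phase genes and Ect2 a cytokinesis factor. Without the third rmTGF-β1 library, Mcm6 and Pcna remained called and the count was 2, and without the third PBS library it was 3. The median was -0.07 in both of these fits. In 16 members (29.6%) of the cells labelled TLR4-/- every rmTGF-β1 library lay below every PBS library, against 17.9% of tested genes. In 1 member (1.85%) every one lay above, against 15.9%. By phase, those wholly below were 10 of 22 S-phase genes (45.5%) and 6 of 32 mitotic genes (18.8%). The mitotic share was near that of all tested genes.

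Mcm6 was the one member called higher with rmTGF-β1 in the main fit. In WT cells it had 2662, 2266 and 2266 normalised counts with PBS and 3205.5, 3388 and 3246 with rmTGF-β1 (0.45 ± 0.07, adjusted p = 0.000138). With rmCIRP it had 2129, 2123.5 and 2133, and with both 3426, 3611 and 3429 (0.71 ± 0.07, adjusted p = 1.6e-07). Each library with rmTGF-β1 lay above each library without it.

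Cells labelled TLR4-/- gave Mcm6 2608, 2565.5 and 2518 counts with PBS and 3728, 3383 and 3611 with rmTGF-β1 (0.49 ± 0.07, adjusted p = 2.09e-05). With rmCIRP it had 2511, 2653 and 2682, and with both 3420.5, 3478 and 2758 (0.30 ± 0.07, adjusted p = 0.00247). The groups were again apart, by a narrow margin in the third library with both proteins. Mcm6 was called in these 4 comparisons in every fit that left out a library.

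None of the other 5 subunits of the MCM helicase was called higher with rmTGF-β1. In WT cells Mcm2, Mcm3, Mcm4, Mcm5 and Mcm7 had log2 fold changes of -0.06, -0.08, -0.16, -0.19 and -0.13, none called. For cells labelled TLR4-/- these were -0.18, -0.26, -0.07, -0.26 and -0.15, with Mcm3 and Mcm5 called lower. The rmTGF-β1 response of Mcm6 differed between genotypes by 0.04 ± 0.09 (SE, adjusted p = 0.933). No member differed in that response by edgeR or DESeq2 and none had an unadjusted p under 0.05, against 0.0369% of tested genes called higher and 0.0492% lower.

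Adding rmTGF-β1 to rmCIRP in WT cells called Mcm6 alone, against 10.0% of tested genes higher and 10.5% lower. The median over members was 0.05, with 0.11 for the S-phase and 0.03 for the mitotic genes. In 15 members (27.8%) every library with both proteins lay above every rmCIRP library, against 18% of tested genes. In 2 members (3.7%) every one lay below, against 18.3%. Those wholly above were 9 of 22 S-phase genes (40.9%) and 6 of 32 mitotic genes (18.8%). The mitotic share was near that of all tested genes. In cells labelled TLR4-/- the same addition called Mcm6 higher and 5 members lower, against 17.2% and 15.6% of tested genes. As shares of the 54 members, both counts were below those of all tested genes. The 5 lower members were Rrm1 (-0.30), Nusap1 (-0.25), Uhrf1 (-0.25), Tk1 (-0.25) and E2f1 (-0.20). Without the third library with both proteins 1 member was called, and without the first 20. Without rmCIRP library 1 the count was 2, and without rmCIRP library 3 it was 3. Here 4 of 6 endothelial markers rose (sums of 22.8 to 42.4 CPM against 20.3 to 20.8), and 3 of 5 smooth muscle and pericyte markers fell and 2 rose (987 to 1580 CPM against 1690 to 1775). Of 8 fibroblast markers 3 fell (11470 to 14570 CPM against 14440 to 15920), and of 13 macrophage markers 4 rose and 1 fell (10240 to 12650 CPM against 9969 to 11280). Their part in the members' change was not tested. The addition of rmCIRP to rmTGF-β1 in these cells called none of the 54 by edgeR or DESeq2, with 2 at an unadjusted p under 0.05, against 1.56% of tested genes higher and 1.13% lower. It was 3 without the first library with both proteins and 1 without the third rmTGF-β1 library.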

How the data were processed

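The authors sequenced stranded total RNA, and the deposited files hold whole-number counts of reads per gene symbol for each of 24 libraries. Before deposit the authors checked reads with FastQC, aligned them with STAR to the mouse GENCODE reference and counted them with HTSeq. The submitters' notes name the build NCBIM37; versions and the strand option were not given in the sources used here. The 5 tally lines of unassigned reads (14.5 to 16.1% of reads) were left out.

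The 54 genes and all gene lists were chosen with earlier results of these data known. Counts were analysed in R 4.3.3. Genes passing filterByExpr (16258) were scaled by TMM and fitted with edgeR 4.0.16 as 8 condition means, and 12 contrasts were tested by its quasi-likelihood F-test. P-values were adjusted over all tested genes by the Benjamini-Hochberg method, with a threshold of 0.1. The fit was run on simulated counts with an equal spread for every gene and no outlying library. Such counts cannot check how well it suits these libraries. Normalised counts were divided by DESeq2 1.42.0 size factors, and centred log2 levels used a prior count of 2. The alternatives were DESeq2, RLE scaling, no filter on low counts, a mean count of at least 10, a replicate block, a fit on only the libraries compared, and leaving out each library.

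Genes were named as 16 set S-phase and mitotic genes, plus the 3 highest and 3 lowest called members of each comparison with at least 50 mean normalised counts; any other member could be named. Lists around the members were given by counts, with values for CDK inhibitors, D cyclins and the most changed genes. Promoter windows came from RefSeq, and the first listed window was used where a gene had several.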

Additional observations from a re-analysis of the deposited data

Results flagged for a closer look

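The effect of rmCIRP differed between genotypes by a test of the difference itself (labelled TLR4-/- minus WT, edgeR with Benjamini-Hochberg adjustment) for 16 of the 54 genes, all with a positive difference. On the log2 scale the S-phase differences were 0.59 for E2f8, 0.58 for Tk1, 0.37 for Rrm1, 0.37 for Mcm5, 0.33 for E2f1, 0.30 for Mcm4. The mitotic differences were 0.48 for Prc1, 0.47 for Ccna2, 0.46 for Cenpf, 0.43 for Cdca3, 0.41 for Mki67, 0.38 for Tpx2, 0.37 for Foxm1, 0.36 for Top2a, 0.33 for Nusap1, 0.31 for Kif11. Macrophage markers differed between the genotypes with PBS as given above. In the rmCIRP response the difference was above 0 for 6 of 13 macrophage markers and below 0 for 4. It was above 0 for 4 of 8 fibroblast markers and below 0 for 1. For 3 of 5 smooth muscle and pericyte markers and 2 of 4 epithelial markers tested it was above 0, and for none below. The part of these lists in the members' differences was not tested.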

How the results depend on the processing

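The 47 members lower with rmCIRP in WT cells stayed at 47 with DESeq2, a replicate block and a fit on only the libraries compared. Leaving out 1 library at a time gave 22 to 52 called there, 1 to 13 for rmTGF-β1 in WT cells, 10 to 22 for rmCIRP on top of rmTGF-β1, 18 to 41 between genotypes with PBS and 5 to 32 for the genotype difference in the rmCIRP effect. In cells labelled TLR4-/- it gave 2 to 7 for rmTGF-β1, 0 to 3 for both against rmTGF-β1 and 1 to 20 for both against rmCIRP. Without WT PBS library 1, Cdc6 with rmCIRP turned to 0.0241 (adjusted p = 0.927), within a range of -0.29 to 0.0241. With no filter on low counts the members called were 7 for rmTGF-β1 in WT cells, 7 for both against rmCIRP in WT cells, 30 for the genotype difference in the rmCIRP effect and 2 for the dependence of rmCIRP on rmTGF-β1. In cells labelled TLR4-/- they were 17 for rmTGF-β1, 3 for both against rmTGF-β1 and 15 for both against rmCIRP. Fits on only the libraries compared gave 34 for both against rmTGF-β1 and 12 for both against rmCIRP in WT cells, and 1 for both against rmCIRP in cells labelled TLR4-/-. DESeq2, RLE scaling and the mean-count filter each gave 2 for both against rmCIRP in WT cells. The S-phase minus mitotic median ranged from -0.0872 to -0.0136 for rmTGF-β1 in cells labelled TLR4-/-, 0.0652 to 0.1382 between genotypes and -0.1624 to -0.0787 for the genotype difference in the rmCIRP effect. The cause of these shifts was not tested. Over all conditions the replicate numbers did not pair the libraries, with a mean correlation of same-numbered deviations of 0.02. All 3 correlations were over 0.1 in 2 of 28 pairs of conditions, and 11 of 24 libraries were closest to their own number. The highest mean, 0.41, was between rmTGF-β1 and both proteins in cells labelled TLR4-/-, at 0.48, 0.15 and 0.59. There the replicate block called 0 members, as the main fit did, while over all tested genes the calls went from 437 to 810. The block shared its replicate effects over all 8 conditions, so it could not check a pairing confined to these conditions. The replicate block gave 15 members in place of 17 for both against rmTGF-β1 in WT cells and 30 in place of 29 between genotypes.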
